A study of Homo sapiens with 3 samples.

Results

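The gene expression of LNCaP cells was compared after small interfering RNA (siRNA) against the 5' fragment of a lysine tRNA and after a control siRNA, on 1 two-colour array. LNCaP is an established line of human prostate cancer cells that secretes prostate proteins in response to androgen. The knockdown cells (5'-Lys KD) had been given 20 nM siRNA against the fragment of the tRNA with anticodon CUU, and the control cells an siRNA named R-Luc, after the luciferase of Renilla, whose dose the labels do not state separately. Both were grown in IMEM with L-glutamine and 5% serum and harvested after 72 h. Both RNAs were hybridised together, with Cy3 on the knockdown and Cy5 on the control, and the column names of the signal table give the same order. The series holds 2 more arrays, of 3'-Asp KD (10 nM) and 5'-Asp KD (20 nM), each also set against R-Luc and harvested after 72 h. Genes were described by the log2 ratio of the knockdown over the control signal, centred on the median of 28048 named probes. Of 20399 genes with a named probe, the 10200 with a mean log2 signal over the series' 6 columns of at least 7.03 are called measured here.

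SHOT-RNAs (sex hormone-dependent tRNA-derived RNAs) are tRNA fragments that accumulate in hormone-driven breast and prostate cancer cells. They arise when the ribonuclease angiogenin cuts a mature tRNA in its anticodon loop, which leaves a 5' and a 3' fragment. Fragments of this kind have been linked to cell proliferation, and the array asked which messenger RNAs differ when the lysine 5' fragment is targeted. The fragment itself was not measured on the array, so the depth of the knockdown is not known from these data. An siRNA against the fragment could also pair with the parent tRNA or with other RNAs, and 1 siRNA and 1 control siRNA were compared.

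With 1 sample a group there was no replicate check and no test, and a difference seen here compares these 2 RNAs, not the conditions at large. "Higher" and "lower" below mean at least 1.5-fold away from the centre (0.58 on the log2 scale). The only error that could be measured was that between probes of the same gene. For 3086 measured genes with more than 1 probe, the median SD of the log2 ratio between probes was 0.17, and 1 in 20 of them had an SD above 0.60. The measured genes had a median log2 ratio of -0.07, quartiles of -0.32 and 0.16, and an SD of 0.39.

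Genes that mark luminal prostate cells had high signals, as the label LNCaP implies. The 9 measured luminal markers lay between percentiles 70.5 (KLK2) and 98.6 (HOXB13) of all genes over both columns, and 5 of them were lower with 5'-Lys KD and 0 higher. ACP3, which encodes prostatic acid phosphatase, was below the filter with 55.6 and 105. Among the markers of other cell types 3 were measured. These were the keratin gene KRT15 of the basal list with 199 and 158 in the knockdown and control column, and DES and COL1A1 of the fibroblast and smooth muscle list with 624 and 579 and with 199 and 142. Their ratios were 0.25, 0.02 and 0.40, all under 1.5-fold. No marker of neuroendocrine, immune or endothelial cells passed the filter, and the brightest of these and of the other unmeasured markers were TAGLN (119 and 90.2), the endothelial CDH5 (117 and 131) and the macrophage gene CD68 (86.8 and 78.1). The basal markers KRT5, TP63 and NGFR, the neuroendocrine CHGA, CHGB and INSM1, the stromal COL1A2, COL3A1, MYH11 and CNN1, the endothelial PECAM1 and TEK and the B cell gene MS4A1 had signals between 2.56 and 6.43, near the negative control probe at 4.59 and 2.81. In bulk RNA fewer cells of a type and less RNA per cell cannot be told apart.

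At least 2-fold higher with 5'-Lys KD were 45 genes (0.441% of those measured), and 177 were at least 2-fold lower (1.74%). The margin of 1.5-fold was passed by 322 genes upward (3.16%) and 953 downward (9.34%), so lower genes outnumbered higher ones at both margins. The balance depended on the centre, since centring on the median of the measured genes gave 62 higher and 138 lower at 2-fold, within-array loess 59 and 139, and normexp background correction 46 and 97. Lower genes were spread over the whole range of signal. Split by signal into 4 bins of equal size, the dimmest held 57 of the 177 lower and 17 of the 45 higher genes, and the brightest 26 and 6. The control signal had a median of 1124 in the 2-fold lower genes, 444 in the 2-fold higher genes and 1072 in all measured genes. Of the 177 lower genes 174 were protein coding, a class that holds 9618 of the 10200 measured genes. Of the 45 higher genes 36 were protein coding and 6 were of the small nuclear or nucleolar RNA classes. These 2 classes hold 5 and 14 measured genes. More than 1 probe was present for 43 of these 222 genes, and for 35 of the 43 every probe passed 1.5-fold the same way.

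**Figure D1:**
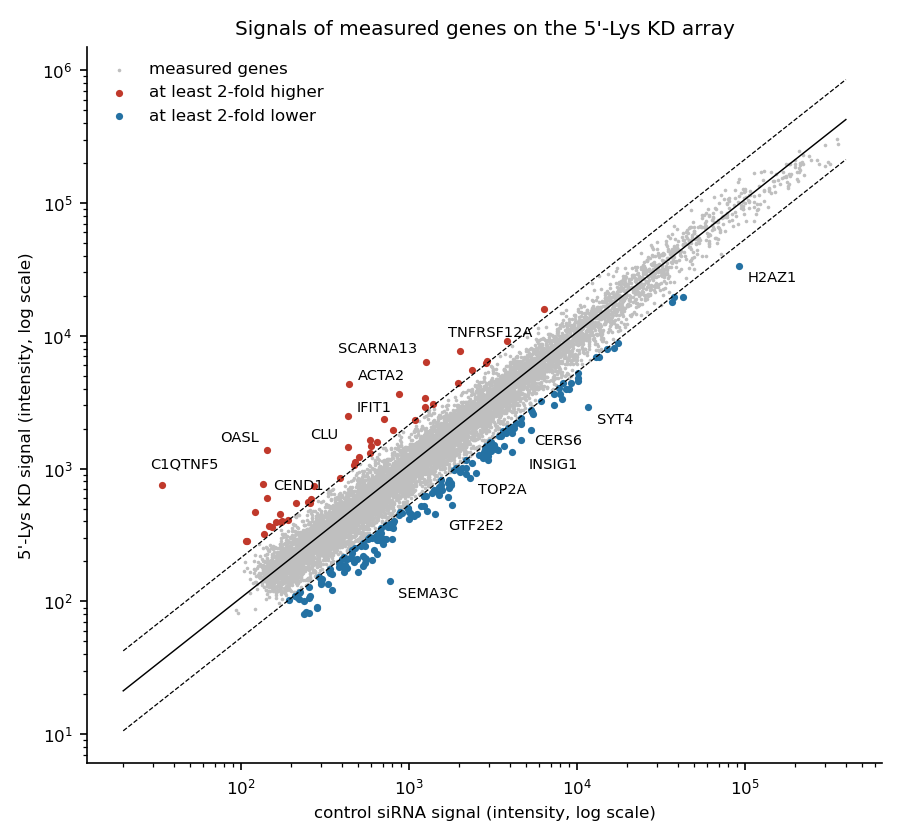
Signals (intensity, log scales) of the 10200 measured genes on the 5'-Lys KD array, control siRNA on the x axis and 5'-Lys KD on the y axis. The solid line is the centre and the dashed lines are 2-fold away. 45 genes lie above the upper dashed line and 177 below the lower one.

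The other arrays gave a further view of each level. Every column was scaled to its own median, and the knockdown column was set against the control column beside it and the 4 columns of the other arrays. It was at least 1.5-fold above all 5 others for 51 genes (0.500%) and at least 1.5-fold below all of them for 186 (1.82%). Of the 45 genes 2-fold higher by the array's own ratio, 15 met this margin, and of the 177 lower genes 96 did. For both Asp arrays the labels and the column names disagree on which column is the control, so their ratios are given here only as first over second column, with no direction. All 3 arrays had the same median over measured genes to within 0.01 (-0.07, -0.07 and -0.08).

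Some of the highest ratios recurred as first over second column on all arrays. C1QTNF5, which encodes a secreted C1q and TNF related protein, had 755 in the knockdown and 34.1 in the control column, a log2 ratio of 4.38, and the first over second ratios of the 3'-Asp and 5'-Asp arrays were 4.83 and 4.51. The first column was thus bright and the second dim on every array for this probe. The TWEAK receptor gene TNFRSF12A had 7643 and 2026 (1.83), beside 1.36 and 1.70. For the spliceosomal U2 RNA gene RNU2-1 the signals were 3662 and 879 (1.97), beside 1.81 and 1.76. A dye effect of the probe and a shared response to the siRNAs cannot be told apart for such genes, because the dye was never swapped on the 5'-Lys array and the direction of the others is not settled.

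Other genes stood apart in the 5'-Lys KD column alone. ACTA2, the smooth muscle actin gene, had 4317 with knockdown and 444 with control, 9.15-fold higher, and its first over second ratios on the 3'-Asp and 5'-Asp arrays were -0.54 and -0.04. Its scaled log2 level was 4.95 in the knockdown column and between 1.30 and 1.91 in the 5 others, which do not overlap it. IFIT1, whose protein binds foreign RNA ends during the interferon response, had 2482 against 438 (5.34-fold) and a scaled level of 4.15 against 1.20 to 1.77. OASL, a relative of the oligoadenylate synthetases, had 1371 against 144 (8.96-fold), with 3.30 against 0.02 to 0.95. CEND1, which marks neurons that leave the cell cycle, had 772 against 135 (5.38-fold), with 2.47 against -0.53 to 0.10. The secreted chaperone clusterin, CLU, had 1448 against 437 (3.12-fold), with 3.38 against 1.62 to 2.14. Further genes of the 10 farthest above all other columns were SCARNA13, SYTL2, SCARNA16, SNORA62 and NXPE3, by 1.03 to 1.52 beyond the nearest other column. Of these, SCARNA13, SCARNA16 and SNORA62 were also brighter in the first than in the second column on both Asp arrays. For SCARNA13 the scaled levels were 3.36 against 2.19 on the 3'-Asp and 3.99 against 2.33 on the 5'-Asp array. SYTL2 encodes a granule-docking partner of Rab27.

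The lower side of that comparison was led by genes of unlike function. GTF2E2, the beta subunit of the general transcription factor TFIIE, had 536 against 1821, a log2 ratio of -1.85, and lay 1.73 below the lowest of the 5 other columns. PIMREG, a mitotic regulator, had 453 against 1428 (-1.74). Mitochondrial glycerol-3-phosphate dehydrogenase, GPD2, had 167 against 502, with probes at -1.91 and -1.44. TMTC2, a mannosyltransferase of cadherins, had 204 against 607 (-1.66), and SPRING1, which licenses activation of the sterol factors SREBP, 83.2 against 246 (-1.65). The ceramide synthase CERS6 had 1629 against 4690, with probes at -1.87 and -1.35. AMMECR1 (-1.59), the stress kinase TAOK3 (-1.50), the early endosome protein RABEP1 (-1.45) and ketohexokinase, KHK (-1.65), completed the 10. Their first over second ratios on the 3'-Asp array lay between -0.26 and 0.31, and on the 5'-Asp array between -0.58 and 0.11.

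**Figure D2:**
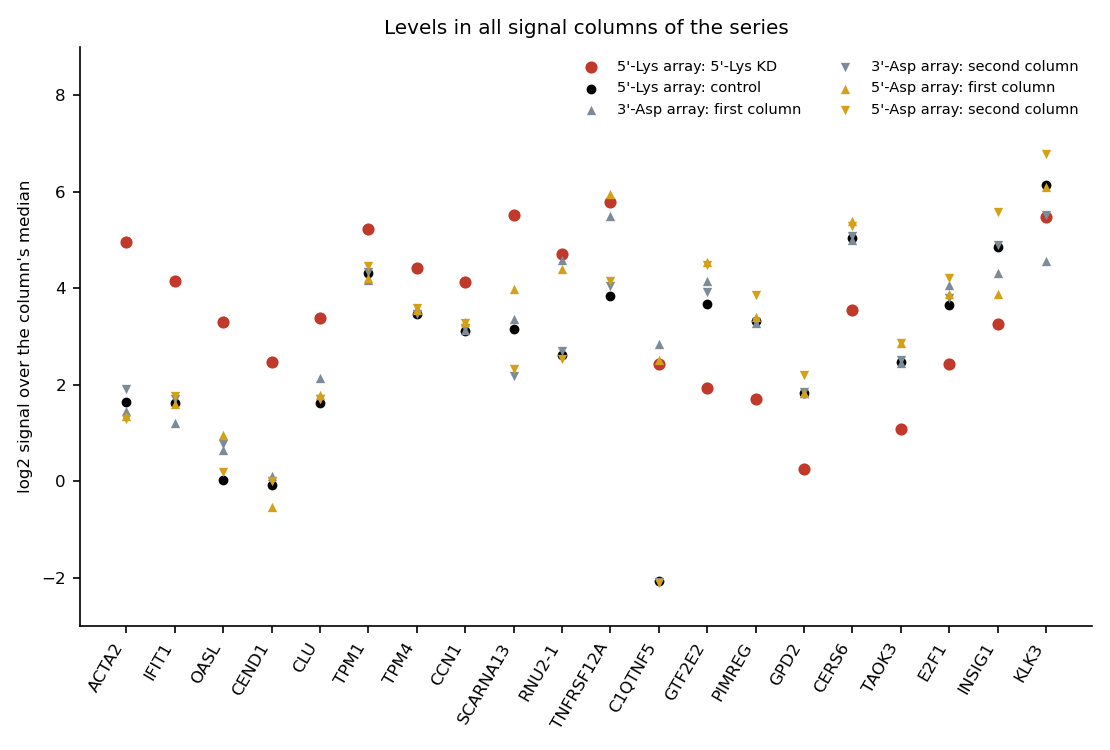
Log2 signal over the column's median of named probes (y axis) for 20 genes (x axis) in the 6 signal columns of the series, 1 point a column. ACTA2, IFIT1, OASL and CEND1 lie above all other columns in 5'-Lys KD, and GTF2E2, GPD2 and CERS6 below them, while C1QTNF5 is as high in the first column of every array.

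Functional lists were then read against these backgrounds, as the number of measured members higher and lower and their median. Among the lists, that of spindle genes had the largest share of lower members. Among 28 measured genes for spindle motors and microtubule regulators 22 were lower and 0 higher, with a median of -0.67 and all members below 0 (-1.35 to -0.27), against 9.34% lower over all measured genes. KIF15, a motor that slides spindle microtubules, had 632 against 1517 (-1.35). The next lowest were the cytokinesis factor ECT2 (-1.16), the spindle stabiliser CKAP2 (-1.05 with both probes), the pole protein ASPM (-1.02 from probes at -1.05 and -0.98), the astrin gene SPAG5 (-0.90) and the microtubule destabiliser STMN1 (-0.90). The mitotic motor KIF11 had 921 against 1378 (-0.67).

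Kinetochore and centromere genes gave a similar picture, with 16 of 31 lower, 0 higher and a median of -0.60. CENPF had 1503 against 3228 with probes at -1.32 and -1.06. SKA1, which couples kinetochores to microtubule ends, had 317 against 673 (-1.17). The centromeric cohesin protector SGO2 (-0.97), CENPU (-0.97) and the outer kinetochore genes NUF2 (-0.92) and NDC80 (-0.90) followed. Of 34 mitotic kinase, cyclin and checkpoint genes 18 were lower and 0 higher, with a median of -0.60. PIMREG was the lowest of them, and after it came CDCA5, which holds sister chromatids together, although its probes gave -1.93 and -0.37. The CDCA5 probe at -1.93 was dim, with 3.89 against 13.93. Its other probe had 6886 against 8370 and was under 1.5-fold. The checkpoint kinase TTK had 499 against 991 (-1.08). CDCA2 (-0.86), FBXO5 (-0.84) and the securin gene PTTG1 (-0.81) were next. Chromosome structure genes had 7 of 21 lower, led by topoisomerase TOP2A with 854 against 2321 (-1.53), the condensin subunit NCAPG (-1.37) and the cohesin subunit RAD21 (-0.97).

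DNA replication genes lay almost as low. Of 24 origin licensing and firing genes 10 were lower and 0 higher, with a median of -0.51, and of 31 fork genes 13 were lower and 0 higher, with a median of -0.54. MCM6, a subunit of the replicative helicase, had 3657 against 7926 (-1.20). The kinase activator DBF4 (-0.92 from probes at -1.21 and -0.62), the helicase subunit MCM3 (-0.84) and the kinase CDC7 (-0.81) were the next lowest of the origin list. At the fork, POLE2 of the leading strand polymerase had 293 against 731 (-1.40), the chromatin assembly factor CHAF1A 755 against 1558 (-1.13), and TIMELESS 7955 against 15180 (-1.02). The primase-coupled polymerase POLA1 had -0.96, the maintenance methyltransferase DNMT1 -0.82 and the clamp loader RFC3 -0.73. Nucleotide synthesis was more mixed, with 6 of 26 lower, 0 higher and a median of -0.18, and these 6 were the enzymes of deoxynucleotide supply DTYMK (-0.98), RRM2 (-0.93), TYMS (-0.79), DCK (-0.61), RRM1 (-0.60) and TK1 (-0.59).

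The regulators of entry into S phase differed among themselves. The list of G1 cyclins, kinases and inhibitors had 10 of 34 lower and 2 higher. Lower were the cell cycle transcription factors E2F7, E2F8, E2F1 and E2F2. E2F8 had 196 against 547 (-1.57) and E2F1 750 against 1786 (-1.34), while the 2 probes of E2F7 gave -2.87 and -0.64. E2F1 lay below all other columns (2.43 against 3.65 to 4.21), and E2F2 had -0.85. The kinase inhibitor CDKN2C (-0.89) and cyclin CCNE2 (-0.81) were lower too. The higher pair was CDKN1A, the p21 inhibitor that arrests the cycle, with 456 against 171 (1.33), and cyclin CCND1, with 3725 against 2067 (0.76). CDKN1A was not above the other arrays' columns, where it reached 1.77 against its own 1.71. It was brighter in the first column on both Asp arrays, at 1.02 against 0.62 and 1.77 against 1.07.

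DNA repair split by pathway. Homologous recombination and crosslink repair had 12 of 32 genes lower, 0 higher and a median of -0.48. RAD51AP1, which stimulates strand invasion, had 307 against 590 (-1.03). EXO1 (-0.88), FANCA (-0.88 from probes between -1.31 and -0.45), FANCG (-0.77), the helicase gene BLM (-0.75) and RAD54B (-0.71) came next. Checkpoint kinase and end joining genes had 2 of 18 lower (RNF168 at -0.77 and XRCC4 at -0.69). In base excision, mismatch and nucleotide excision repair 0 of 25 were lower and 0 higher, and the median was 0.05. POLQ, a polymerase of alternative end joining and in none of the lists, had 1457 against 3095 (-1.17), and USP1, which trims ubiquitin from FANCD2, 1861 against 3811 (-1.12).

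**Figure D3:**
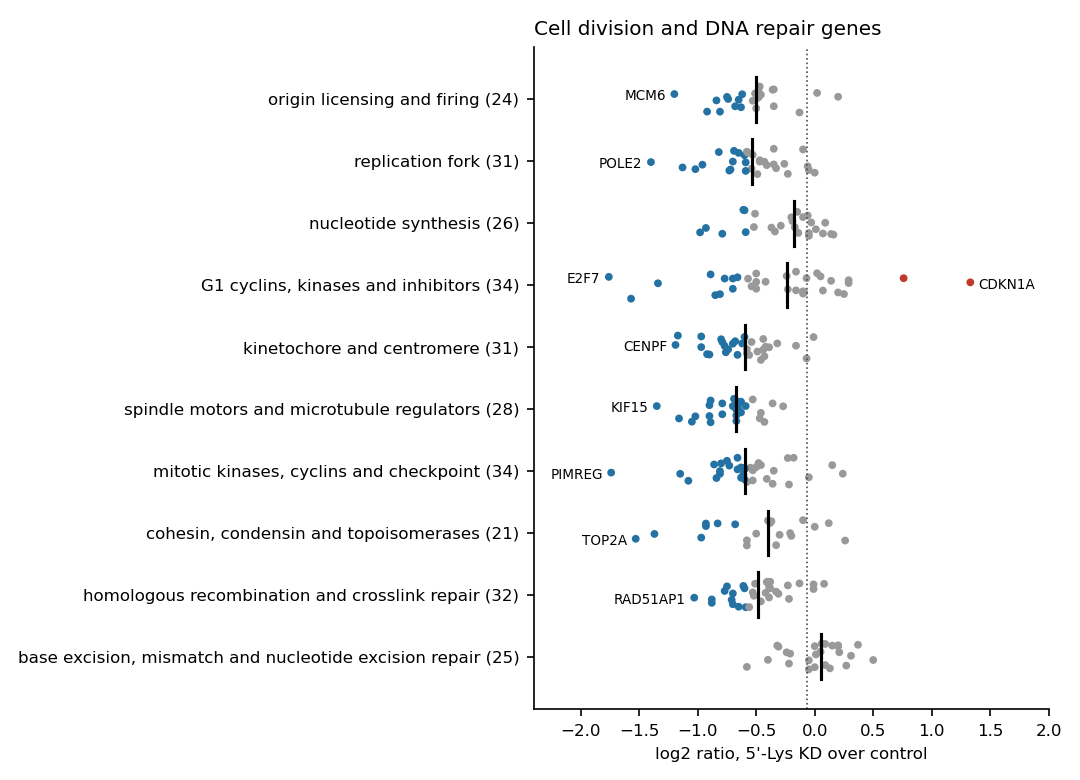
Log2 ratio of 5'-Lys KD over control (x axis) of each measured member of 10 lists (rows, number measured in brackets), 1 point a gene, vertical position jittered. Red and blue points are at least 1.5-fold higher and lower, bars are list medians, and the dotted line is the median of all measured genes at -0.07. All 28 spindle genes lie below 0, and the 25 base excision, mismatch and nucleotide excision repair genes lie between -0.58 and 0.50.

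The medians of these lists were also below 0 as first over second column on the other arrays. For spindle genes they were -0.26 on the 3'-Asp and -0.66 on the 5'-Asp array, for kinetochore genes -0.24 and -0.66, and for fork genes -0.20 and -0.54. The 3 arrays may share control RNA, which was not stated, and their direction is not settled, so no overlap was drawn from this.

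The promoters of 2 of these genes are shown because the letters are those that cell cycle factors of these programmes read. They are the 250 bases before the start in RefSeq (GRCh38.p14), 5' to 3' on the gene's strand. Capitals mark the E2F letters TTTGGCGC, TTTCCCGC, TTTCGCGC or TTTGCCGC on either strand in MCM6. In KIF11 they mark TTTGAA (the cell cycle homology region) and CCAAT, on either strand.
MCM6, chr2:135876444-135876693, minus strand: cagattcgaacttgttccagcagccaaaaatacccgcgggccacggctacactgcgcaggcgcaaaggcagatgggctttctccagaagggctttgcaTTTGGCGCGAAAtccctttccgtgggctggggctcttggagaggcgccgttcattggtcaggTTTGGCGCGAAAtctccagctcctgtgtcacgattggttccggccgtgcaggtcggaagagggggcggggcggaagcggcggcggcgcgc
KIF11, chr10:92592880-92593129, plus strand: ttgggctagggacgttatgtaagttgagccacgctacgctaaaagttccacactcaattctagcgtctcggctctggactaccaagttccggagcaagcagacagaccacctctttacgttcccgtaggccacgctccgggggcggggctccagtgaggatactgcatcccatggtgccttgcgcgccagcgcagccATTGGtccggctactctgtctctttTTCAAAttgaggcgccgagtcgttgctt

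The capitals in MCM6 cover 2 stretches in which matches of both strands overlap, the nearest beginning 90 bases before the start. In KIF11 the CCAAT match begins 53 and the TTTGAA match 28 bases before it. E2F letters were present in 8 of 29 promoters of measured origin genes and 9 of 35 of fork genes, against 2.79% of all 35116 promoters of the table. TTTGAA was present in 15 of 30 promoters of spindle genes, 13 of 34 of the mitotic kinase list and 5 of 31 of kinetochore genes, against 13.3% of all. CCAAT was in 19 of the 30 spindle promoters, against 32% of all. A gene can have several starts and thus several promoters in these counts. A match is a run of letters and no evidence that a factor binds there.

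Histone genes did not follow the replication genes. Of 54 measured replication-dependent histone genes 11 were higher and 1 lower, with a median of 0.23, against 3.16% higher over all measured genes. H3C15 had 15850 against 6411 (1.22), H2AC8 6196 against 2872 (1.02) and H2AC7 25040 against 12340 (0.93). H2AC6 (0.81), H2BC3 (0.69) and H2BC21 (0.63 from probes at 0.20 and 1.05) were next, and the linker histone H1-5 was the lower one (-0.60). Probes of this family may bind more than 1 member. The median as first over second column was 0.32 on the 3'-Asp and -0.06 on the 5'-Asp array. Among variants and chaperones 5 of 23 were lower and 2 higher. The replacement variant H2AZ1 had 33680 against 92750 (-1.55) and lay below all other columns (7.92 against 8.68 to 9.48), and H2AZ2 had probes at -1.04 and -0.59. H2AZ1 was also dimmer in the first column on both Asp arrays, at 8.68 against 9.15 and 8.83 against 9.48. HJURP (-0.79), the histone gene activator NPAT (-0.72) and SLBP (-0.66), which binds the histone mRNA stem loop, were lower, and SUPT6H (0.87) and MACROH2A2 (0.62) higher.

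Small noncoding RNAs of the nucleus had the highest median of any list. Of 21 measured genes for small nuclear, nucleolar and Cajal body RNAs 13 were higher and 0 lower, with a median of 0.69. SCARNA13, a Cajal body guide RNA, had 6366 against 1266 (2.24), and SNORA28, which guides pseudouridylation, 2365 against 711 (1.65). SNORA73A (1.22), SCARNA12 (1.21) and SCARNA16 (1.07) came after RNU2-1. The RNAs of RNase MRP (RMRP, 0.91), of the transcription regulator 7SK (RN7SK, 0.75) and of telomerase (TERC, 0.69) were among the others. SNORD3B-1, a U3 gene, had probes at -0.36 and 1.68. This list had medians of 0.78 and 0.72 as first over second column on the 3'-Asp and 5'-Asp arrays, close to its 0.69 here. Whether dye or treatment set this cannot be told apart. SCARNA13 and SCARNA16 were brighter in the first column on both Asp arrays too. In the knockdown column SCARNA13 exceeded every other column by 1.52 and SCARNA16 by 1.19. SNORA62, a nucleolar RNA outside the list, exceeded them by 1.05 and had 1656 against 585 (1.42), beside 0.99 and 0.35. Of 277 measured long noncoding RNA genes 4 were higher and 12 lower. The host transcript of the miR-17-92 cluster, MIR17HG, had 200 against 473 (-1.33), and the snoRNA host SNHG6 10910 against 17680 (-0.78).

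**Figure D4:**
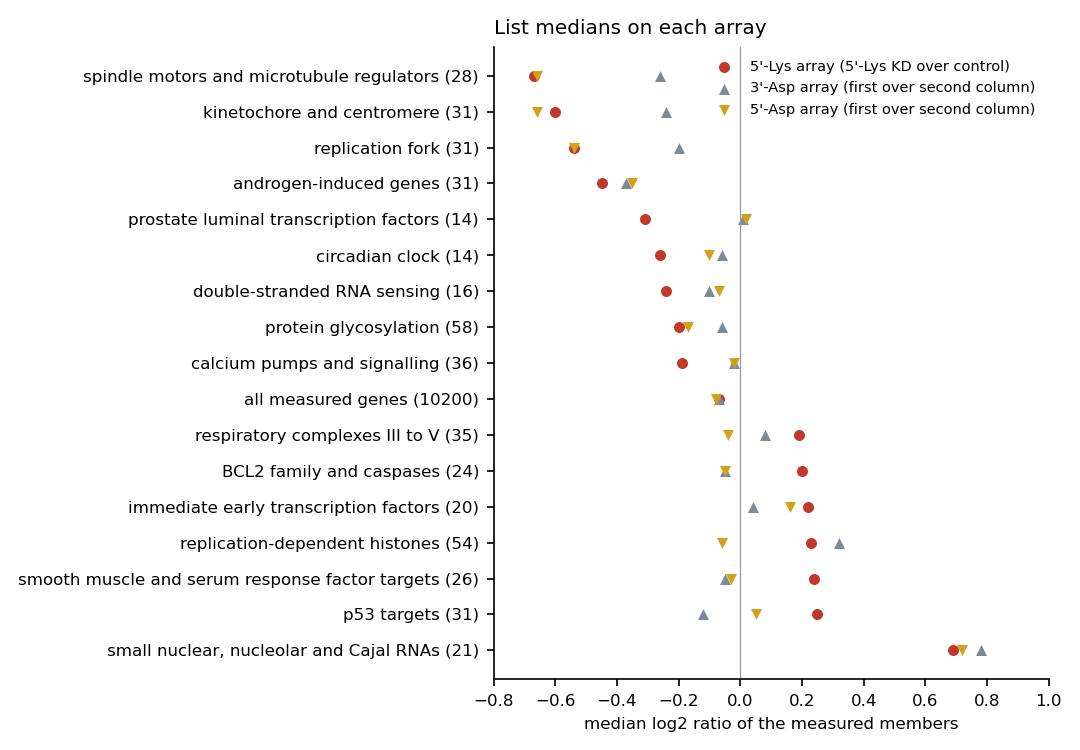
Median log2 ratio (x axis) of the measured members of 16 lists and of all measured genes (rows, number measured in brackets) on each array, 1 point an array. Circles are 5'-Lys KD over control, and triangles the first over the second column of both Asp arrays, whose direction is not settled. Small nuclear RNAs lie at 0.69 to 0.78 on all arrays, and smooth muscle and serum response factor targets at 0.24, -0.05 and -0.03.

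Targets of serum response factor were another list with a large share of higher members. Serum response factor (SRF) switches on actin and contractile genes when its MRTF partners are released from free actin. Of 26 measured genes of smooth muscle and of SRF targets 8 were higher and 1 lower, and the median was 0.24. The medians as first over second column were -0.05 on the 3'-Asp and -0.03 on the 5'-Asp array. Below ACTA2, the calponin gene CNN2 had 1801 against 873 (0.96), the matricellular CCN1 2430 against 1235 (0.89), and the tropomyosins TPM4 2966 against 1572 (probes at 0.72 and 0.94) and TPM1 5212 against 2844 (3 probes between 0.76 and 0.83). The light chain kinase MYLK (0.64), ACTN4 (0.62) and MYL6 (0.59) were the remaining higher members. Caldesmon, CALD1, went the other way with 14410 against 24060 (-0.83).

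For 5 members of that list the knockdown column exceeded all 5 others by at least 1.5-fold. CCN1 had 4.12 against 3.12 to 3.31, TPM4 4.41 against 3.46 to 3.58 and TPM1 5.22 against 4.18 to 4.47, so their other columns lay close together and apart from it. SRF itself had a ratio of 0.15, and the coactivators MRTFA and MRTFB had -0.10 and -0.26. The smooth muscle myosin MYH11 and calponin CNN1 were near the negative control signal in both columns, TAGLN was below the filter with 119 against 90.2, and desmin, DES, had 0.02.

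Among 45 regulators of actin 4 were higher and 5 lower, with a median of -0.01. Gelsolin, GSN, which severs filaments, had 361 against 154 with probes at 0.67 and 1.62. RHOB (0.88), VASP (0.67) and cofilin, CFL1 (0.59), were higher. Lower were the formins DIAPH3 (-1.11) and DIAPH1 (-0.64), WASF3 (-0.99), CDC42EP2 (-0.90) and WASF1 (-0.70). Zyxin, ZYX, a focal adhesion protein in none of the lists, had 1124 against 481 (1.14) and 3.01 against 1.74 to 2.31 in the other columns. ILK, which links integrins to actin, had 2338 against 1084 (1.02), and its partner parvin, PARVA, 154 against 294 (-1.02). The proteoglycan SDC4 of adhesion sites had 1965 against 811 (1.19).

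The promoters of CNN2 and TPM4 are printed as those of higher members in which the SRF motif, the CArG box, was found. Capitals mark it, in the same 250-base window.
CNN2, chr19:1026358-1026607, plus strand: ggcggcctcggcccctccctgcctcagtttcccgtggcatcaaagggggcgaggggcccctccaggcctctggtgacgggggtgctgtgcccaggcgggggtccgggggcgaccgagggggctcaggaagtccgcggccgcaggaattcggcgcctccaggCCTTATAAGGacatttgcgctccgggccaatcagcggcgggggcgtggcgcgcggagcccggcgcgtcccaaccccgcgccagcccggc
TPM4, chr19:16067288-16067537, plus strand: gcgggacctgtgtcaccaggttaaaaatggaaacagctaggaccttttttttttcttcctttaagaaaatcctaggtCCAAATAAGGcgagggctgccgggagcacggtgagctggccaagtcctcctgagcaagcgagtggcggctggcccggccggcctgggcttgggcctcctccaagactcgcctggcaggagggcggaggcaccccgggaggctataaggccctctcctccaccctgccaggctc

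The match begins 89 bases before the start in CNN2 and 173 in TPM4. A CArG box was found in 8 of 44 promoters of the measured members, of 8 genes with a median ratio of 0.32, and in 1.16% of all promoters. CCN1 and CLU had no entry among the promoters.

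Other surface and matrix genes showed no common direction. In extracellular matrix and proteases 5 of 27 were higher and 3 lower. Besides SDC4 these were the protease MMP24 (0.996), LOXL1 (0.77), COL6A1 (0.76) and ADAM17 (0.60) on the high side and COL5A2 (-1.33), the collagen hydroxylase PLOD1 (-1.05 from probes at -1.30 and -0.79) and ADAMTS1 (-0.87) on the low side. Guidance genes included the lowest ratio of all measured genes, that of the secreted semaphorin SEMA3C, which had 141 against 772, 5.80-fold lower. Its scaled level of 0.02 was below the 1.05 to 2.45 of the other columns. SEMA3C was also dimmer in the first than in the second column on both Asp arrays. The levels were 1.31 against 2.45 on the 3'-Asp and 1.05 against 1.54 on the 5'-Asp array. Whether dye or treatment set this was not tested. EFNB2, a ligand of Eph receptors, had 1162 against 2974 (-1.44), the plexin PLXNA1 1746 against 3427 (-1.06), and EFNA5 550 against 213 (1.28). Epithelial junction genes had 3 of 32 higher (DSC2 at 0.88, CLDN4 at 0.66 and JUP at 0.65) and 3 lower (TJP1 at -1.04, ITGB1 at -0.78 and KRT19 at -0.63).

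A few interferon-stimulated genes were high and most of the list was near the centre. The list had 5 of 26 members higher and 1 lower with a median of 0.06, while the sensors of double-stranded RNA and their adaptors had 0 of 16 higher, 0 lower and a median of -0.24. After OASL and IFIT1 came IFI6, a mitochondrial survival protein, with 1066 against 475 (1.08), the ubiquitin-like ISG15 with 28390 against 13610 (0.97) and the nuclease gene ISG20 with 5244 against 3169 (0.64). DTX3L had -0.73. MX1, a classic member, had 135 against 175 (-0.46), IFI44 0.14, STAT2 -0.03, and the receptor chains IFNAR1 and IFNAR2 -0.50 and -0.49. RIGI, EIF2AK2 and ADAR lay between 0.13 and 0.15. On the 3'-Asp and 5'-Asp arrays the first over second ratios were -0.59 and -0.26 for IFIT1 and -0.21 and 0.66 for OASL. ISG15 (7.67 against 6.58 to 7.37) and IFI6 (2.93 against 1.74 to 2.49) were above the other columns, by less than 1.5-fold.

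Promoters of higher and not higher members are shown together, each from a start chosen because its window holds the element. Capitals mark GAAANNGAAA on either strand, the core of the interferon-stimulated response element, in the same window.
IFIT1, chr10:89392373-89392622, plus strand: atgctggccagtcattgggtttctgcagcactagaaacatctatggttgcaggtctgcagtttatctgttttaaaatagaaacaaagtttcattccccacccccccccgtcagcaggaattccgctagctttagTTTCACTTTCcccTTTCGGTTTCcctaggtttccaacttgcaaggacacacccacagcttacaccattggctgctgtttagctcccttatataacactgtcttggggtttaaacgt
ISG15, chr1:1013247-1013496, plus strand: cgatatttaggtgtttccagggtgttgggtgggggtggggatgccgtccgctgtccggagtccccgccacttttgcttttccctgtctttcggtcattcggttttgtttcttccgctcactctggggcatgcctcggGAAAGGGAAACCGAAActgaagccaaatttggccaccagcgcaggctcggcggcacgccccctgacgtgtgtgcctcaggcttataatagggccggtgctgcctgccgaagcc
IFI6, chr1:27672193-27672442, minus strand: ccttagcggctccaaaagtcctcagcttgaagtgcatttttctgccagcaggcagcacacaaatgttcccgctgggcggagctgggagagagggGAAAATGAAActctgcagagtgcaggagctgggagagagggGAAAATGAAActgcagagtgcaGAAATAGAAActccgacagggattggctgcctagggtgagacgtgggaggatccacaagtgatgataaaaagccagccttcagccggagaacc
MX1, chr21:41431800-41432049, plus strand: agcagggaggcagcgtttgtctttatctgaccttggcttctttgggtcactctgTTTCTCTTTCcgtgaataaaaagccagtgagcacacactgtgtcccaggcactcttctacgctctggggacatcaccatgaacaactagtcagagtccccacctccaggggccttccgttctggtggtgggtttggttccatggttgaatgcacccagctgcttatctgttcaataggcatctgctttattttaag

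IFIT1 has 2 matches, the nearer beginning 103 bases before the start, ISG15 2 that overlap and IFI6 3, and the window of MX1 is that of 1 of its starts. The letters were in 15 of 28 promoters of measured list members and in 3.02% of all promoters. Their 14 genes had a median ratio of 0.20, and the element was thus present both in genes with the largest ratios and in genes near or below 0.

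The lists of p53 targets, BCL2 family and caspases, death receptors and NF-kB had medians above that of all measured genes and few lower members. Of 31 p53 targets 4 were higher and 2 lower, with a median of 0.25, beside -0.12 and 0.05 as first over second column on the 3'-Asp and 5'-Asp arrays. CDKN1A, the cytokine GDF15 (0.79), PHLDA3 (0.74) and the death receptor FAS (0.73 from 3 probes between 0.68 and 0.77) were higher, and BTG1 (-1.06) and SESN1 (-0.86) lower. The BCL2 family and caspase list had 3 of 24 higher and 0 lower. BIRC3, an inhibitor of apoptosis, had 596 against 143 (1.97), the pro-apoptotic BIK 3386 against 1249 (1.35) and BAK1 3086 against 1394 (1.06). BIK was as high in 1 column of another array, at 4.59. It was brighter in the first than in the second column on both Asp arrays, at 4.31 against 3.49 and 4.59 against 3.17. Death receptors had 4 of 18 higher, with TNFRSF21 (0.88) and TNFRSF10A (0.63) beside TNFRSF12A and FAS. The NF-kB list had 2 of 16 higher, BIRC3 and RELB, the latter with 1221 against 508 (1.18). For GDF15 and RELB another array had a higher column. GDF15 was brighter in the first column on both Asp arrays, at 9.47 against 8.62 and 10.90 against 9.10. RELB was so on the 5'-Asp array (3.23 against 2.16) and not on the 3'-Asp array (2.05 against 2.38). Whether dye or treatment set these levels was not tested.

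In the lists of prostate genes more members were lower than higher, as was so over all measured genes (9.34% lower, 3.16% higher). Of 31 androgen-induced genes 11 were lower and 0 higher, with a median of -0.45. As first over second column this list had medians of -0.37 on the 3'-Asp and -0.35 on the 5'-Asp array, below 0 there too. The secretory Rab gene RAB3B had 177 against 428 (-1.36), the potassium channel gene KCNN2 4438 against 9283 (-1.15), the chaperone FKBP5 366 against 749 (-1.12), and the fatty acyl-CoA ligase ACSL3 2773 against 5310 (-1.02). PLPP1 and ELL2 followed at -0.87. KLK3, which encodes prostate-specific antigen, had probes at -1.01 and -0.53, and it may share probe binding with its relative KLK2 (-0.47). Its scaled level here, 5.47, lay inside the 4.57 to 6.79 of the other columns. Genes repressed by androgen were not the mirror image, with 1 of 15 higher (UGT2B7 at 0.71) and 6 lower, among them CAMK2N1 (-1.40), TMEFF2 (-1.38) and BCHE (-1.19). Among luminal transcription factors 3 of 14 were lower, RFX6 with 90.9 against 284 (-1.73), ETV1 with 4 probes between -1.17 and -0.94, and HOXB13 with 21500 against 35470 (-0.81). This list had a median of -0.31, beside 0.01 and 0.02 on the other arrays. Secretory and surface proteins had 6 of 21 lower and 2 higher, CLU and the trefoil factor TFF3 (0.68 from probes between 0.42 and 0.83). Their median was -0.36, beside -0.22 and -0.19 as first over second column on the 3'-Asp and 5'-Asp arrays.

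**Figure D5:**
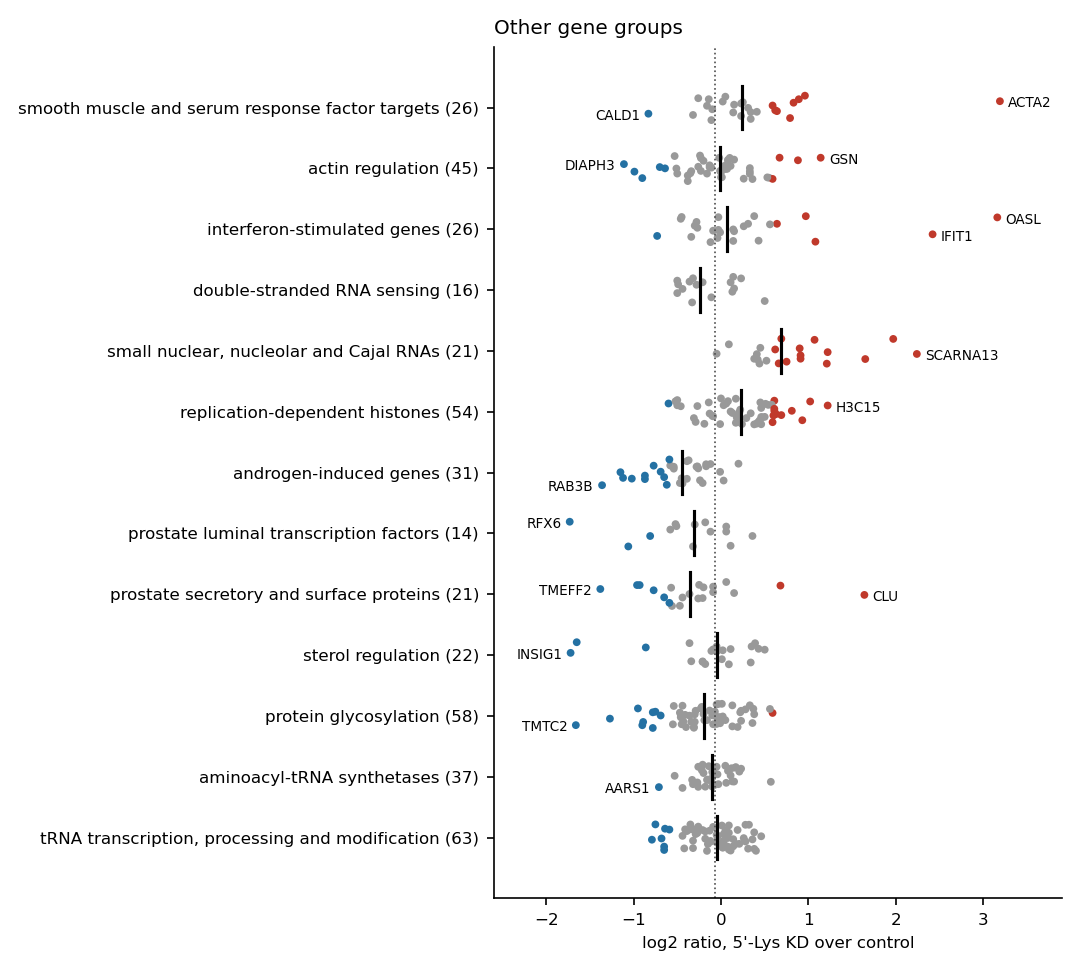
Log2 ratio of 5'-Lys KD over control (x axis) of each measured member of 13 lists (rows, number measured in brackets), drawn as in the plot of cell division genes. ACTA2, OASL, IFIT1 and SCARNA13 lie beyond 2 on the log2 scale, and the members of the aminoacyl-tRNA synthetase list between -0.71 and 0.57.

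Genes that make, use or cut tRNA stayed near the centre. Of 37 aminoacyl-tRNA synthetases 1 was lower (AARS1 at -0.71) and 0 higher, with a median of -0.10, and the lysine enzyme KARS1 had 13530 against 15280 (-0.26). In tRNA transcription, processing and modification 7 of 63 were lower and 0 higher, a share of the order of the background, with a median of -0.05. The lowest were the Elongator subunit ELP6 (-0.79), the 3' processing enzyme ELAC1 (-0.75), the polymerase III subunit POLR3G (-0.68 from probes at -1.16 and -0.19), its factor BDP1 (-0.65), the exporter XPOT (-0.65) and ELP5 (-0.64). None of 22 genes of the angiogenin and RNA silencing list was 1.5-fold away (0 higher, 0 lower). Angiogenin, ANG, had a ratio of 0.25, its inhibitor RNH1 0.09, DICER1 0.56 and DROSHA -0.57. Translation factors had 4 of 52 lower and 1 higher, with EIF3J (-0.88) and the poly(A) binding protein PABPC1 (-0.71) among the lower. Cytoplasmic ribosomal proteins had 1 of 69 lower (RPL7A at -0.59), 0 higher and a median of -0.17, beside -0.12 and -0.16 on the other arrays. Of 60 ribosome biogenesis genes 2 were lower and 1 higher, the helicase DDX18 with 921 against 2521 (-1.54) being far below the rest.

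Lists of transcription and splicing had medians near that of all measured genes and a few low members. Apart from GTF2E2, general transcription and Mediator had 4 of 64 lower, which were ELL2, MED12 (-0.61), TAF12 (-0.61) and NELFE (-0.61), and 1 higher, TAF13 (0.62). In the spliceosome list 5 of 69 were lower and 3 higher, with SNRPD3 among the 5 only through the average of its probes. SNRPD3 had -1.46, but its probes disagreed entirely (-3.07 and 0.16), and no direction is given for it. The nuclear pore and transport list had 8 of 49 lower and 0 higher and a median of -0.18, led by NUP54 (-0.87), IPO9 (-0.82) and NUP43 (-0.79). Histone modifying enzymes had 7 of 63 lower and 2 higher. The Polycomb genes EZH2 (-0.83), SUZ12 (-0.75) and BMI1 (-0.72) were among the lower, and EZH1 (0.64) and SIRT6 (0.85) were the higher pair. CXXC1, which recruits the H3K4 methylase SET1 to CpG islands, had 480 against 1294 (-1.52), and the heterochromatin protein CBX1 3 probes between -1.33 and -0.69.

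In lipid metabolism the largest ratios were those of single genes. In sterol regulation 3 of 22 were lower, 0 higher. INSIG1, which retains the sterol sensor in the endoplasmic reticulum, had 1335 against 4145 (-1.72), and its level of 3.26 was below the 3.88 to 5.58 of the other columns. INSIG1 was also dimmer in the first than in the second column on both Asp arrays. The levels were 4.32 against 4.89 on the 3'-Asp and 3.88 against 5.58 on the 5'-Asp array. Whether dye or treatment set this was not tested. SOAT1, which esterifies cholesterol, had -0.86. The 17 measured enzymes of cholesterol synthesis had 1 higher (LSS at 0.59), 1 lower (EBP at -0.63) and a median of 0.06, with HMGCS1 at -0.04 and SQLE at 0.29. For fatty acid and glycerolipid synthesis 4 of 28 were lower and 2 higher, GPD2, ACSL3, AGPAT3 (-0.96) and ELOVL6 (-0.61) against AGPAT2 (0.75) and AGPAT1 (0.70). FASN and SCD had -0.11 and -0.02. Sphingolipid genes lay on both sides of the centre, with CERS6, the palmitoyltransferase subunit SPTLC1 (-1.03 from probes at -1.49 and -0.58), the lyase SGPL1 (-0.78) and the desaturase DEGS1 (-0.66) lower and CERS2 (0.62) higher. The sterol transfer protein OSBPL8 had probes at -1.34 and -1.11, OSBPL11 had -1.09 and the cholesteryl ester hydrolase NCEH1 -1.25.

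The lists of the respiratory chain lay slightly above the centre and other lists of energy metabolism near or below it. Respiratory complexes III to V had a median of 0.19 with 0 of 35 higher and 0 lower, and complex I a median of 0.18 with 1 of 35 higher (NDUFS7 at 0.63) and 1 lower (NDUFA6 at -0.62). Both medians were 0.08 and -0.04 as first over second column on the 3'-Asp and 5'-Asp arrays. Mitochondrial ribosomal proteins had a median of 0.02 with 2 of 63 lower, of which MRPS6 had 4538 against 10130 (-1.24). The citrate cycle had IDH3A (0.95) and IDH3G (0.68) higher and ACO1 and PCK2 (both -0.79) lower among 28, with a median of -0.12. In glycolysis 1 of 29 was higher (RPIA at 0.68) and 2 lower (PGAM1 at -0.69 and LDHB at -0.61), with a median of 0.01. Fatty acid oxidation had 1 of 32 higher and 1 lower, with a median of -0.18. The folate enzyme MTHFD2 had 3944 against 8695 (-1.23), and the mitochondrial peroxidase PRDX3 8160 against 16650 (-1.11), beside PRDX1 (-0.91) and PRDX5 (0.65).

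The lists of membrane transport differed, and lower genes outnumber higher ones over all measured genes too (9.34% against 3.16%). Of 48 solute carriers of sugars, ions and organic molecules 11 were lower and 1 higher. They included the inositol carrier SLC5A3 with 1402 against 3320 (-1.33), the monocarboxylate carrier SLC16A6 with 288 against 679 (-1.32) and the bicarbonate carrier SLC4A4 with 1275 against 2620 (-1.12), and SLC44A4 (0.66) was the higher one. Of 24 amino acid transporters 3 were higher and 2 lower, with a median of -0.18. In iron, zinc and copper handling 8 of 42 were lower and 0 higher, with the zinc transporters SLC30A4 (-0.95) and SLC39A6 (-0.92) lowest. Protein glycosylation had 9 of 58 lower and 1 higher, and after TMTC2 the mucin-type transferase GALNT10 had 452 against 1026 (-1.27), TMTC4 -0.95 and ST6GALNAC1 -0.90. Among ion channels KCND2 (-1.73, with a knockdown signal of 81.6 below the filter level of 131), KCNN2 and the volume-regulated channel subunit LRRC8A (-1.04) were the 3 lower of 29, a share close to that of all measured genes.

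Vesicle traffic included some of the largest ratios in both directions. Synaptotagmin SYT4 had 2899 against 11710, 4.29-fold lower, although its level of 4.38 was above that of 4 of the other columns, which ran from 2.86 to 6.36. SYTL2 was 3.60-fold higher, with 468 against 122. RAB27A (-0.82), RAB11FIP1 (-0.70) and SYTL1 (-0.67) were lower and RAB31 (0.66) and RAB7A (0.61 from probes at 0.07 and 1.16) higher in this list, which had 5 of 37 lower and 3 higher. Among genes of no list that were at least 2-fold lower, some act on endosomes. They were picked for their values, with no list of endosome genes behind them, and were RABEP1, its partner EEA1 (-1.09), the Rab7 adaptor FYCO1 (-1.37), RAB15 (-1.24), ACAP2 (-1.03) and USP6NL (-1.31).

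Signalling lists differed in how many members lay away from the centre. In the receptor tyrosine kinase and MAPK list 1 of 26 was higher (VEGFB at 0.72) and 0 lower, and in immediate early transcription factors 1 of 20 (MAFG at 0.60) and 0 lower, with a median of 0.22. The PI3K, mTOR and insulin-like growth factor list had 8 of 47 lower and 2 higher. SGK3 had 675 against 1458 (-1.20), RPS6KA3 probes at -1.64 and -0.73, and the scavenger receptor IGF2R 1482 against 2880 (-1.04), while STK11 (0.77) and PRKAG2 (0.59) were higher. TGF-beta, activin and BMP signalling had 4 of 25 higher and 3 lower, with a median of -0.13. GDF15, the ligand BMP6 (0.78), the inhibitory SMAD7 (0.67) and the activin-binding FSTL3 (0.65) were higher, and the receptor BMPR2 (-0.90), the repressor SKI (-0.78) and SMAD4 (-0.61) lower. For Wnt and Hippo signalling 3 of 36 were lower and 3 higher. LEF1, a nuclear partner of beta-catenin, had 121 against 349 (-1.61) and the receptor FZD4 451 against 874 (-1.04). The circadian list had 3 of 14 lower, HLF with 136 against 331 (-1.37), the repressor NFIL3 with 1596 against 3066 (-1.03), and TIMELESS. PEBP1, an inhibitor of RAF kinase, had 19590 against 42720 (-1.21) and lay 1.09 below the lowest other column, and the 14-3-3 gene YWHAG had 17980 against 37130 (-1.13).

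Of the 222 genes at least 2-fold away 126 were in none of the lists, 19 higher and 107 lower, and they were grouped by function after their values had been seen. Protein kinases among the lower ones, besides TAOK3, were HIPK1 (probes at -1.44 and -1.30), the histone kinase HASPIN (-1.32), DYRK2 (-1.25), the Mediator kinase CDK19 (-1.09), TTBK2 (-1.03) and TESK1 (-1.03). Zinc finger and other transcription factor genes were THAP10 (-1.51), ZNF730 and ZHX1 (both -1.37), USF3 (-1.28), NFE2L3 (-1.27), ZNF107 (-1.19), FOXN3 (-1.15) and SP4 (-1.10). Proteoglycan and sugar enzymes were UGP2 (-1.24), DSEL (-1.22), CHST14 (-1.18) and EXTL2 (-1.09). RNA binding proteins included SRSF8 (-1.27), PNN (-1.19), YTHDC2 (-1.12) and KHDRBS1 (-1.04). The neuropeptide neuromedin U, NMU, had 1950 against 5321 (-1.53) and the orphan receptor GPR158 1387 against 3398 (-1.38). On the higher side were the transcription factor ARID3A (1.37), the protein C receptor PROCR (1.24), the hepatokine FGL1 (1.15), the retinoid-induced PLAAT4 (1.06) and the autophagy protease ATG4D (1.08). For ILF2, which binds double-stranded RNA, the probes gave 0.28 and 1.86, and for TRAM1, a translocon gene of the endoplasmic reticulum list, -0.13 and 2.50, so both averages rested on 1 probe.

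Gene families read by the start of their symbols gave a last view that used no list. Of 29 symbol starts with at least 25 measured genes, CEP (centrosomal proteins) had the lowest median, -0.51, with 10 of 27 lower and 0 higher. USP (mostly ubiquitin-specific proteases) had 9 of 39 lower and 0 higher with a median of -0.25, and ZBTB (a class of zinc finger factors) 6 of 29 with -0.22. The USP count includes USP6NL (-1.31), named above among genes that act on endosomes, by its symbol alone. The 331 measured ZNF genes had 22 lower, 0 higher and a median of -0.11, which is near that of all measured genes. At the other end POLR, the polymerase subunits, had a median of 0.11 with 1 of 30 lower.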

How the data were processed

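RNA of LNCaP cells was labelled and hybridised to 2-colour arrays, 1 array for each of 3 knockdowns, by a service company, per the labels. The intensity of each probe in both colours is that deposited by the authors, in columns named raw per the file headers. Both columns of the 5'-Lys array have close medians (140 and 142) and hold no negative value. Neither labels nor headers state the extraction software, background correction or dye balancing. The deposited series values are a score, a signed fold change that equals the ratio of the same columns times a constant for each array. They were used as an alternative.

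Of 34183 probes, 56 control probes were left out of the genes, and 28048 had 1 gene symbol, from the platform annotation brought up to date through RefSeq: 25515 by accession, 2179 with a current symbol and 354 with an older one. The other 6079 are unnamed. Log2 signals of the probes of a gene were averaged. Log2 ratios of the knockdown over the control column were centred on the median of named probes (0.086 before centring). Genes were kept whose mean log2 signal over the 6 columns reached the 50th percentile. With 1 array a group no test was made, and the number of arrays limits the precision. 86 gene lists and 6 marker lists were read by counts and medians. The members and lists were chosen with earlier results of these data known. In a list up to 6 genes on either side that were at least 1.5-fold away were named, with others by value, and any gene at least 2-fold away could be named. Alternatives were other centring, loess and normexp (limma 3.58.1 in R 4.3.3), other filters, the brightest probe and the deposited scores. Python 3.11.15 with numpy 2.4.6 and pandas 2.3.3 was used, and the counting was tested on simulated data. Promoter sequences are RefSeq's (GRCh38.p14).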

Additional observations from a re-analysis of the deposited data

How the results depend on the processing

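Each result was recomputed under 9 alternatives, 2 of which were added after seeing the data. With no filter on dim genes, 473 of 20399 passed 2-fold upward and 732 downward. With a filter at the 75th percentile 14 of 5100 were higher and 78 lower, all of them among the genes reported, as fewer genes were counted. Normexp background correction with an offset of 50 left 97 genes at least 2-fold lower, and the cause was not tested. The other counts stayed within 1.5 times those reported, between 41 and 62 higher and between 138 and 212 lower. The brightest probe of each gene gave 42 higher and 212 lower, of which 35 and 150 were genes reported. Only the spindle, kinetochore, mitotic kinase and small nuclear RNA lists had medians of at least 1.5-fold, and none of these changed sign. Sign changes of list medians nearer the centre were not counted. General transcription and Mediator went from -0.03 to 0.03 when centred on the median of measured genes. Of 774 list medians 12 moved by more than the spread between probes, 8 of them with the filter at the 75th percentile.

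For the 326 measured genes named, 2736 values were recomputed. Of those reported as at least 1.5-fold away, 3 changed sign, all with the brightest probe, because the probes of these genes disagree. They were SNORD3B-1 (-0.36), SNRPD3 (0.16) and TRAM1 (-0.13). Sign changes of ratios nearer the centre were not counted, such as STAT2 from -0.03 to 0.04 when centred on the median of measured genes. A further 101 values moved by more than the spread between probes, 74 of them under normexp. C1QTNF5 went from 4.38 to 3.28 under normexp, where its dim control signal was raised. CDCA5 had -0.29 and -0.37, E2F7 -0.81 and -0.64, and ILF2 0.27 and 0.28 with normexp and with the brightest probe. For 4 of the higher and 16 of the lower genes 1 column was below the filter level, which limits the precision of their ratios. No paired analysis was possible because there is 1 array of each knockdown.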

Other observations

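Some gene groups not described above lay near the centre. The proteasome had 2 of 43 genes lower and 0 higher with a median of -0.05, autophagy and lysosome genes 2 of 58 lower and 3 higher with -0.06, and heat shock proteins and chaperones 2 of 49 lower and 1 higher with -0.03. Antigen presentation had 1 of 17 lower and 0 higher, with a median of 0.01. Several other lists not described above had a larger share of lower members than the 9.34% of all measured genes. Among them, cilia and centrosome genes had 10 of 49 lower and 0 higher with a median of -0.18, and calcium pumps and signalling 7 of 36 lower and 1 higher with -0.19. The list of ATF4 and the integrated stress response had 5 of 30 lower and 1 higher with -0.23. Chromatin remodelling and architecture had 6 of 38 lower and 2 higher with -0.19.

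The genes on both sides of the 2-fold margin had nearly equal ratios. On the higher side SHANK3 (1.018 on the log2 scale) was nearest inside and MMP24 (0.996) nearest outside. On the lower side DEPDC1B was nearest inside and CIPC nearest outside, with ratios equal to 3 decimals, followed by SIX4 (-1.001) and SALL2 (-0.999).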
